A study of Homo sapiens with 16 samples.

Results

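HEK293 cells that overexpressed the RNF43 frameshift variant G659fs were set against HEK293 cells that overexpressed green fluorescent protein (GFP). The libraries were taken by their overexpression label alone, 4 of G659fs and 4 of GFP, which are 8 of the 16 RNA-seq libraries of the study. HEK293 is a line derived from human embryonic kidney, and every library came from it. The other 8 libraries overexpressed wild-type RNF43 (WT) or the early frameshift variant R117fs, 4 each. They entered the shared estimate of spread and direct tests against G659fs. All 4 groups thus carried an overexpressed protein, and no group was left unmodified. The sources used here name no promoter, vector or time after its introduction, nor do they say whether the 4 libraries of a group came from separate cultures or clones. All p-values below rest on the variation among these libraries, part or all of which may be technical.

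RNF43 is a membrane-bound ubiquitin ligase. It marks Frizzled receptors for uptake and breakdown, which makes it a feedback inhibitor of Wnt signals, and R-spondins bound to LGR receptors take RNF43 itself off the surface. The gene is often hit by frameshifts in a run of guanines near the end of its coding sequence in colorectal and endometrial tumours with mismatch repair defects. Such a frameshift leaves the extracellular, membrane-spanning and RING parts and replaces the end of the cytoplasmic tail.

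The reference sequence around the affected glycine codon is printed to show the run in which the frameshift lies. It is coding sequence of exon 9 of the 10 exons of transcript ENST00000407977.6 in GENCODE 29, at chr17:58357769-58357831 on the minus strand of GRCh38. Capitals mark the run of 7 guanines, which fills coding positions 1970 to 1976 and ends in the GGT codon of glycine 659. In the 783 residue reference protein 124 residues follow that glycine. The changed bases of the overexpressed construct were not read here.
RNF43 around codon 659: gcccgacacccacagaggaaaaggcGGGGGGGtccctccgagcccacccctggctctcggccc

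The targeted gene followed the labels. RNF43 (ENSG00000108375, chromosome 17, 58352500 to 58417595) held 346, 931, 904 and 1350 counts in the GFP libraries and 1040602, 1694614, 1427315 and 1386018 counts in the G659fs libraries. It thus took 3.56%, 3.87%, 3.53% and 4.67% of the counts matched to annotated genes in the G659fs libraries and at most 0.00538% of those in a GFP library. Scaled to counts per 1000000 with TMM factors (CPM, used for every level below), RNF43 stood at 31.4 ± 15.4 CPM (SD, n = 4) in GFP and 39391 ± 5415 CPM (SD, n = 4) in G659fs, a log2 fold change of 10.29 ± 0.52 (SE) with an adjusted p of 9.9e-08. Summed per gene, the counts do not separate transcripts of the construct from those of the endogenous gene. By annotated transcript, ENST00000577625 held 71.9% ± 0.253 of the RNF43 counts in G659fs and 25.5% ± 21.2 in GFP (SD, n = 4 each). ENST00000577716 held 28.1% ± 0.25 in G659fs and 43.5% ± 24.1 in GFP.

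Depth was 25441077 to 30937321 estimated counts per GFP library and 29886062 to 44738520 per G659fs library. R117fs replicate 4 stood apart from its group. Its deviations from the mean of the group's other libraries had an SD of 0.579 (log2) over genes, when no other library exceeded 0.409. HEK293 itself was checked by 11 tested genes known for high levels in the line, which summed to 449 to 501 CPM in GFP and 613 to 667 CPM in G659fs. Of these 3 rose, 1 fell and 7 were not called, PAX2 (log2 fold change -0.04) among the last. The median log2 fold change of the 11 was 0.06, with 6 positive and 5 negative, and the neurofilament gene NEFM rose by 1.02. Of the other cell types, haematopoietic PTPRC, CD3E, HBB and SPI1 and the gut genes MUC2, KRT20 and FABP1 were too low to test. The 10 tested haematopoietic markers summed to 22.4 to 29.1 CPM in GFP and 20.7 to 22.3 CPM in G659fs.

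Of 16787 genes tested, 4258 (25.4%) differed between G659fs and GFP at an adjusted p under 0.05. Of these, 1946 (11.6% of those tested) were higher in G659fs and 2312 (13.8%) were lower. The changes were mostly small: 3100 of the 4258 (72.8%) were under 1.5-fold, and 422 reached 2-fold, 103 higher and 319 lower. The median log2 fold change over all genes was 0.00. In 37.9% of all genes tested the 4 libraries of a group did not overlap with those of the other. With the 8 libraries fitted alone 6993 genes were called. The common biological coefficient of variation was 0.062 in that fit and 0.103 in the fit of all 16 libraries.

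**Figure D1:**
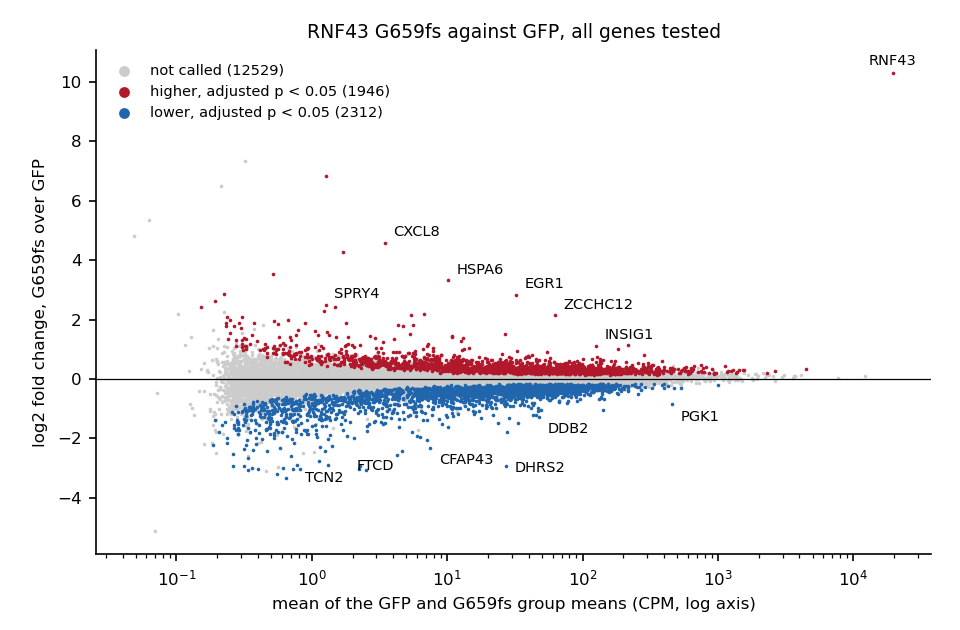
Each point is 1 of the 16787 genes tested. The horizontal axis is the mean of both group means in CPM on a log axis, and the vertical axis is the log2 fold change of G659fs over GFP. RNF43 stands alone at 10.29, CXCL8 (4.59) and HSPA6 (3.34) are the next highest of the labelled genes, and the falls of 2-fold or more (319) outnumber the rises (103).

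Apart from RNF43, the 12 protein-coding genes with the largest rises, among those with non-overlapping groups and at least 2 CPM in G659fs, were LENG9, CXCL8, AC005258.1, HSPA6, EGR1, SPRY4, ROS1, CGA, FOS, IL32, ZCCHC12 and HIST1H1E. EGR1, FOS and SPRY4 are known as growth factor response genes, and CXCL8 and IL32 as targets of NF-kappaB. The 12 with the largest falls were MGAM, TCN2, DHRS2, SMC1B, KCNN4, INPP5D, CASC1, FTCD, CFAP43, DNAH12, WDR78 and MYO1H. LENG9 had only 2 counts in the 4 GFP libraries together against 342 in G659fs, a ratio of 136 with an exact 95% counting interval of 37.3 to 1130, and lost its call without GFP replicate 2 or 3. DNAH12 lost its call when effective transcript length was taken into account (adjusted p of 0.0695).

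Wnt receptors were the first group examined, since RNF43 acts on them. Of 21 tested receptors, co-receptors and R-spondin genes, 7 rose and none fell, with a median log2 fold change of 0.19. Over all genes tested 11.6% were higher, 13.8% were lower and the median was 0.00, and the counts of this and every later list stand beside those shares. FZD9, a Frizzled receptor, was at 6.38, 6.55, 6.67 and 7.002 CPM in GFP and at 10.4, 11.4, 10.5 and 11.1 CPM in G659fs, a log2 fold change of 0.70 ± 0.10 (SE) with an adjusted p of 7.3e-05. All 4 G659fs libraries lay above all GFP libraries. FZD8 rose by 0.55, FZD1 by 0.38 and FZD7 by 0.31 on the log2 scale. The R-spondin ligand RSPO1 rose by 1.17 from levels under 0.3 CPM. FZD5 (0.19) and the R-spondin receptor LGR4 (0.37) were called, but each lost its call in 7 or more of the 17 alternative analyses. The co-receptor LRP6 (-0.07), the receptor LGR5 (-0.37) and ZNRF3, the closest relative of RNF43 (0.17, adjusted p of 0.054), were not called. The count of 7 fell to 4 without GFP replicate 2 or 4 or without G659fs replicate 1, 2 or 3, and was 12 with the 8 libraries alone.

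Wnt/beta-catenin target genes were split between called and uncalled members. AXIN2, a destruction complex scaffold and a standard readout of the pathway, was at 18.7, 23.5, 19.3 and 24.0 CPM in GFP and at 19.8, 18.2, 18.2 and 20.3 CPM in G659fs. Its groups overlapped, with a log2 fold change of -0.16 ± 0.11 (SE) and an adjusted p of 0.31. TCF7 (-0.05), NOTUM (0.10), APCDD1 (0.20) and TNFRSF19 (0.05) were likewise not called. Of the 16 tested target genes 6 rose and none fell, with a median of 0.20. These were LEF1 (0.22), the inhibitor NKD1 (0.33), SOX4 (0.54), MYC (0.56), the cyclin CCND1 (0.74) and the secreted Wnt antagonist DKK1 (1.14). MYC and CCND1 also respond to growth factor signals. MYC was at 178, 168, 158 and 167 CPM in GFP and at 241, 260, 231 and 261 CPM in G659fs, with no overlap. No TCF/LEF site (CTTTGATC, either strand) lay in the 9 target gene promoters matched, against 0.656% of all 27305 promoters. At that share a match among 9 promoters would be rare, so its absence tells nothing about these genes.

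Immediate early genes, which are transcribed within minutes of a growth signal, rose in 11 of 27 tested members and fell in none, with a median of 0.33. EGR1, a zinc finger transcription factor (chromosome 5, 138465490 to 138469315), was at 5.93, 9.39, 7.50 and 9.09 CPM in GFP. In G659fs it was at 50.9, 60.9, 60.0 and 56.2 CPM, so that the lowest G659fs library lay far above the highest GFP library. The fold change was 7.15, or 2.84 ± 0.20 (SE) on the log2 scale, with an adjusted p of 1.1e-07. EGR1 was at 43.2 ± 13.2 CPM in WT and 7.08 ± 1.48 CPM in R117fs (SD, n = 4 each).

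FOS, a subunit of the AP-1 factor, was at 2.01, 2.50, 1.69 and 3.58 CPM in GFP and at 9.86, 11.3, 10.8 and 11.98 CPM in G659fs, a log2 fold change of 2.18 ± 0.37 (SE). EGR3 rose by 1.82 ± 0.31, from 1.06 to 2.72 CPM in GFP to 5.54 to 7.32 CPM in G659fs. ARC, known best from neurons, rose by 1.28 ± 0.19, from 6.24 to 8.39 CPM to 15.8 to 19.6 CPM. In all 3 genes the groups did not overlap, which for FOS was a condition of its choice. FOSB (1.18), KLF4 (0.63), JUNB (0.61), CYR61 (0.58), IER5 (0.33), JUN (0.32) and KLF6 (0.26) also rose, although JUN lost its call in 7 of 17 alternatives. Among those not called were SRF (0.10), the factor that drives many of these genes, and NR4A1 (0.20), IER2 (0.11), FOSL1 (0.29) and EGR2 (0.35).

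The EGR1 promoter is printed because it carries the serum response element, the CArG box, which SRF binds. The window, from the RefSeq promoter set on GRCh38.p14, lies 115 to 64 bases before the start of the gene at chr5:138465364-138465415 on the plus strand, with both CArG boxes in capitals. A CArG box occurred in 1.29% of all promoters and in 2 of 20 matched immediate early promoters, those of EGR1 and SRF. A CRE (TGACGTCA) occurred in 1.98% of all promoters and in the promoters of JUND and MAFF, neither of which was called.
EGR1: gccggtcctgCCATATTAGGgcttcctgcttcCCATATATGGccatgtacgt

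Genes downstream of RAS and the MAP kinases rose alongside. Of 27 tested members of this list, which comprises ERK-driven factors and feedback inhibitors, 12 rose and 1 fell, with a median of 0.37. ETV5, an ETS factor of the PEA3 family, was at 1.75, 3.20, 1.66 and 3.31 CPM in GFP and at 8.36, 7.87, 8.57 and 10.2 CPM in G659fs. The groups were well apart, with a log2 fold change of 1.82 ± 0.22 (SE) and an adjusted p of 1.8e-05. Its relatives ETV4 and ETV1 rose by 1.41 and 0.92.

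Feedback inhibitors of the pathway were higher as well. SPRY4, a Sprouty protein that restrains receptor tyrosine kinase signalling, was at 0.342, 0.515, 0.307 and 0.372 CPM in GFP and at 1.92, 2.18, 2.42 and 2.11 CPM in G659fs, a log2 fold change of 2.50 ± 0.27 (SE). The level was low in both groups, and the lack of overlap between them was a condition of its choice. SPRY1 (0.35), SPRY2 (0.37) and SPRED1 (0.53) rose by less. Among dual-specificity phosphatases, DUSP4 rose by 0.84, DUSP5 by 0.72 and DUSP1 by 0.47. DUSP6, the ERK phosphatase most often used as a readout, was at 0.768 to 1.27 CPM in GFP and 1.18 to 1.498 CPM in G659fs and was not called (0.42, adjusted p of 0.27). VGF (1.14) and PHLDA1 (0.60) also rose. LIF, a cytokine of the interleukin 6 family, moved the other way, from 10.8 to 15.9 CPM in GFP to 4.25 to 5.11 CPM in G659fs, and fell by 1.52 on the log2 scale.

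**Figure D2:**
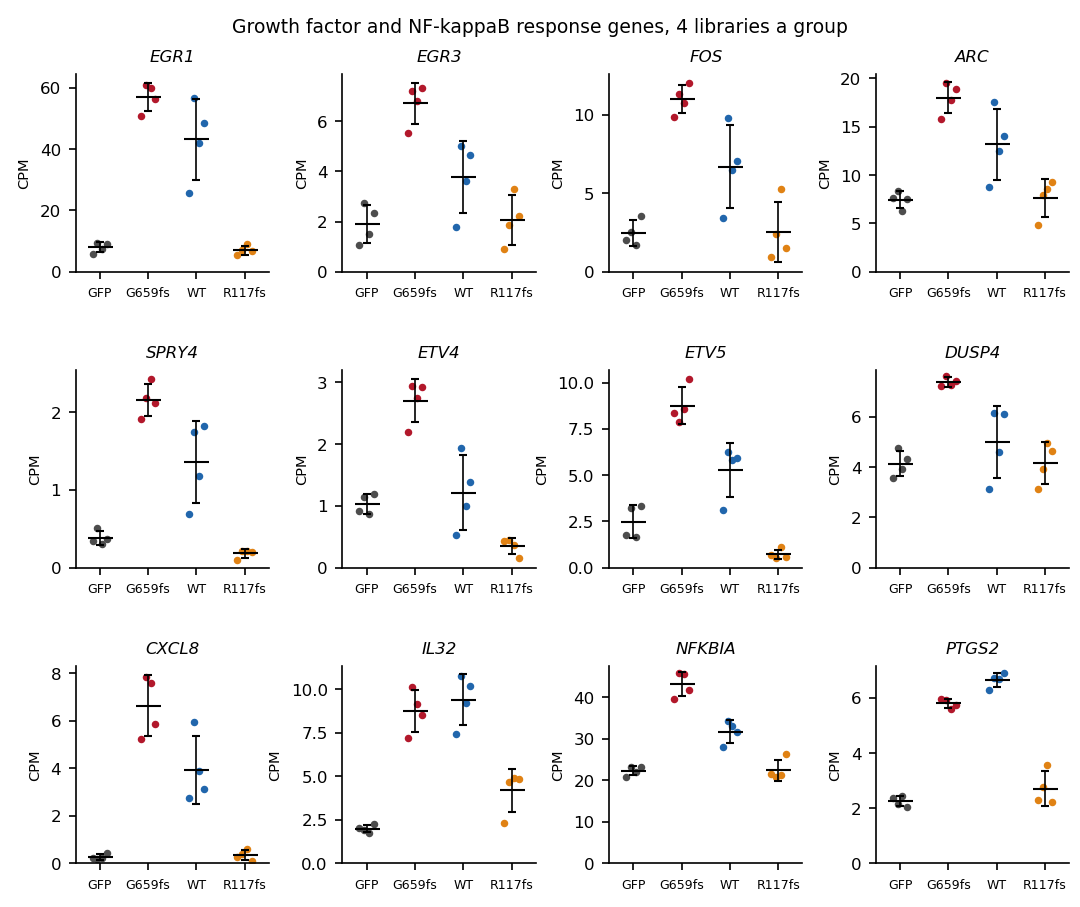
CPM of 12 genes in each library of the 4 groups, on linear axes from 0, with the mean and SD of 4 libraries. The red G659fs points of EGR1 lie between 50.9 and 60.9 CPM and its grey GFP points between 5.93 and 9.39 CPM, and in every panel the G659fs and GFP points do not overlap. For EGR1, FOS, SPRY4, CXCL8 and IL32 that was a condition of their choice.

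NF-kappaB responses had the highest median of the 30 gene lists described, 0.58, and 13 of 21 tested members rose while none fell. CXCL8, the neutrophil-attracting chemokine interleukin 8 (chromosome 4, 73740506 to 73743716), was at 0.228, 0.184, 0.246 and 0.447 CPM in GFP and at 5.23, 7.83, 7.58 and 5.85 CPM in G659fs. That is a 24.1-fold difference, 4.59 ± 0.34 (SE) on the log2 scale, with an adjusted p of 1.1e-07. Every G659fs library lay more than 10-fold above every GFP library.

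Some inhibitors that NF-kappaB induces against itself rose, NFKBIA, TNFAIP3 and TNIP1, while NFKBIE (0.05) and NFKBIZ (0.41) were not called. NFKBIA, which holds NF-kappaB in the cytoplasm, was at 20.9, 23.3, 22.1 and 23.2 CPM in GFP and at 39.6, 45.8, 45.5 and 41.9 CPM in G659fs, a log2 fold change of 0.95 ± 0.08 (SE) with an adjusted p of 7.8e-07. TNFAIP3, a ubiquitin-editing inhibitor, rose by 0.97 ± 0.15, from 7.71 to 9.50 CPM to 14.0 to 18.7 CPM. Neither gene overlapped between groups. The secreted effector IL32 was at 2.05, 1.91, 1.75 and 2.27 CPM in GFP and at 7.21, 10.1, 9.16 and 8.51 CPM in G659fs (2.14 ± 0.20). PTGS2, the inducible cyclooxygenase, rose by 1.36 ± 0.12 to 5.60 to 5.96 CPM. The subunit genes RELB (0.58) and NFKB2 (0.32) rose, whereas RELA (-0.13), NFKB1 (0.15) and REL (-0.22) were not called. ICAM1 (0.69) and TNIP1 (0.23) also rose.

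The chemokine genes CXCL1 (2.00), CXCL2 (1.31), CXCL3 (0.83) and CCL20 (2.87) rose from levels under 0.7 CPM in every GFP library. Of the 21 promoters of this list that could be matched 12 held an NF-kappaB site, against 5.72% of all promoters. Of those 12 genes 7 rose, 4 were not called and 1 was not tested, and of the 9 without a site 5 rose. The search for this site was added after the calls were seen. The windows are printed to show that the 3 CXCL genes, close neighbours on chromosome 4, carry the same site in nearly the same surroundings. Capitals mark the sites, overlapping matches merged, on GRCh38.p14 at chr4:73869304-73869334 (plus) for CXCL1, chr4:74099253-74099283 (minus) for CXCL2, chr4:74038748-74038778 (minus) for CXCL3, chr2:227813753-227813782 (plus) for CCL20, chr16:3065294-3065324 (plus) for IL32, chr14:35404811-35404840 (minus) for NFKBIA and chr6:137867182-137867223 (plus) for TNFAIP3.
CXCL1: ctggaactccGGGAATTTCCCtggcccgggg
CXCL2: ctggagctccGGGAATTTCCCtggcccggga
CXCL3: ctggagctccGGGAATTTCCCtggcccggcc
CCL20: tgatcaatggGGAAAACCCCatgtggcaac
IL32: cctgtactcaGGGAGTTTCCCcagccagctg
NFKBIA: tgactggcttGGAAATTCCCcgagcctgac
TNFAIP3: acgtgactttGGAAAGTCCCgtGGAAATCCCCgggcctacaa

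Targets of p53, the stress-activated tumour suppressor, were lower in G659fs. Of 23 tested targets 19 fell and none rose, with a median of -0.52, the lowest of the 30 lists. PHLDA3, an inhibitor of AKT (chromosome 1, 201464383 to 201469237), was at 33.8, 38.2, 29.4 and 38.8 CPM in GFP and at 12.6, 12.3, 11.2 and 13.9 CPM in G659fs. The level in GFP was 2.81-fold that in G659fs, a log2 fold change of -1.49 ± 0.12 (SE) with an adjusted p of 2.6e-07. DDB2, a DNA damage recognition protein, was at 64.8, 71.9, 56.5 and 78.8 CPM in GFP and at 27.97, 27.96, 27.63 and 29 CPM in G659fs (-1.27 ± 0.10). The spread between the 4 G659fs libraries, 0.595 CPM (SD), was far below the 9.55 CPM of GFP.

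BTG2, an antiproliferative gene, had a log2 fold change of -1.22 and went from 51.6 to 66.5 CPM to 24.1 to 28.02 CPM. SPATA18, which acts in mitochondrial quality control, fell by 1.07, EDA2R by 1.35, AEN by 1.03, TP53INP1 by 0.92 and FDXR by 0.91. Common markers of the pathway fell by less. CDKN1A, the cell cycle inhibitor p21, was at 102, 106, 88.1 and 104 CPM in GFP and at 75.0, 74.6, 75.8 and 83.1 CPM in G659fs (-0.37 ± 0.09). MDM2, the ligase that degrades p53, had the same log2 fold change of -0.37 but lost its call without G659fs replicate 2 and with effective transcript length. BBC3 (-0.32), ZMAT3 (-0.20), TP53I3 (-0.16) and CCNG1 (0.13) were not called. GFP overexpression is the only control here, so a higher level in GFP cells and a lower level in G659fs cells cannot be told apart. Compared with GFP, 14 of the same targets fell in WT and 14 in R117fs, in comparisons that share the GFP libraries.

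Genes of motile cilia and their dynein arms were also lower. Of 40 tested members 20 fell and none rose, with a median of -0.38. Against the same GFP libraries 16 fell and 2 rose in WT, and 7 fell and none rose in R117fs. As these are bulk samples, fewer cells with such transcripts and less RNA per cell cannot be told apart. CFAP43, an axonemal protein (chromosome 10, 104129888 to 104232362), was at 11.8, 12.7, 11.2 and 14.3 CPM in GFP and at 3.34, 2.02, 2.44 and 2.42 CPM in G659fs. Its level was 4.96-fold higher in GFP (-2.31 ± 0.14, adjusted p of 9.7e-09). WDR78, an axonemal dynein intermediate chain, was at 9.65, 11.96, 11.6 and 12.8 CPM in GFP and at 3.24, 2.59, 2.64 and 2.76 CPM in G659fs (-2.04 ± 0.15). The dynein heavy chain DNAH6 (-1.02) went from 10.05 to 10.54 CPM in GFP to 4.52 to 5.55 CPM.

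Regulators of the ciliary programme fell with them. FOXJ1, the main transcription factor of motile cilia, was at 0.920 to 1.12 CPM in GFP and 0.279 to 0.459 CPM in G659fs (-1.29 ± 0.24). RFX3, which acts with FOXJ1, was at 15.96, 19.95, 17.3 and 20.3 CPM in GFP and at 12.8, 11.1, 11.1 and 10.4 CPM in G659fs (-0.70 ± 0.11). RFX2 fell by 0.36. DNAH5 (0.00), HYDIN (0.14), CCDC39 (0.29), CCDC40 (-0.06) and RSPH9 (0.14) were among the 20 not called. An X-box, the site RFX factors bind (searched as GTTNCC and GGNNAC with 2 bases between), lay in 7 of 36 matched promoters of the list against 1.46% of all promoters. Of these 7 genes DNAH1 fell, 5 were not called and 1 was not tested, while 14 of the 29 without a match fell. The count of 20 became 13 with effective transcript length. The windows of DNAH1 (chr3:52316204-52316237) and SPAG16 (chr2:213284270-213284303), both on the plus strand of GRCh38.p14, are printed as a pair with the X-box in capitals, the first from a gene that fell and the second from a gene that was not called (-0.31).
DNAH1: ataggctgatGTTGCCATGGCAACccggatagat
SPAG16: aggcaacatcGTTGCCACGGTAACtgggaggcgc

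**Figure D3:**
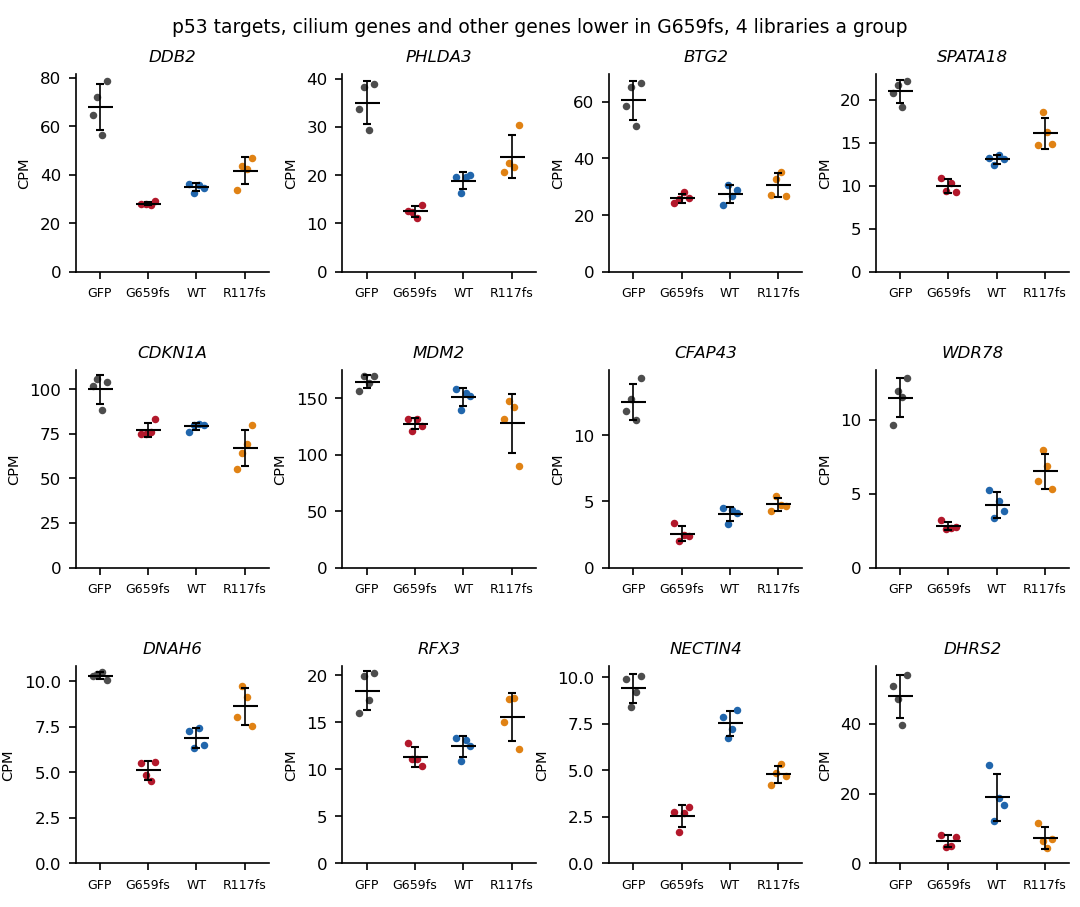
CPM of 12 lower genes in each library of the 4 groups, on linear axes from 0, with the mean and SD of 4 libraries. The G659fs points of DDB2 lie between 27.63 and 29 CPM and its GFP points between 56.5 and 78.8 CPM. In the NECTIN4 panel WT lies far nearer GFP than G659fs does.

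Several of the largest falls belonged to no list. DHRS2, a mitochondrial reductase (chromosome 14, 23630115 to 23645639), was at 50.9, 47.04, 39.7 and 53.9 CPM in GFP and at 8.19, 4.66, 5.04 and 7.49 CPM in G659fs, 7.68-fold lower (-2.94 ± 0.28). TCN2, the vitamin B12 carrier transcobalamin, was 8.20-fold lower, at 3.57 to 4.36 CPM in GFP and 0.346 to 0.627 CPM in G659fs. FTCD, an enzyme of histidine breakdown, was 5.41-fold lower with an adjusted p of 1.3e-09. That the groups of these 3 genes did not overlap was a condition of their choice. INPP5D, a phosphoinositide phosphatase known from blood cells, fell by 2.57 on the log2 scale, and the potassium channel KCNN4 by 2.90, the meiotic cohesin SMC1B by 2.92 and the intestinal glucosidase MGAM by 3.08. In the direct test against WT, FTCD was not called (-0.06, adjusted p of 0.86), whereas DHRS2, KCNN4 and INPP5D were called lower in G659fs. TCN2 held 21, 28, 14 and 22 counts in the WT libraries and 18, 22, 14 and 14 in the G659fs libraries. Among rises outside the lists, ZCCHC12 went from 20.1 to 27.97 CPM in GFP to 83.1 to 114 CPM in G659fs (2.14 ± 0.30). The receptor tyrosine kinase ROS1 rose by 2.43 and CGA, the alpha subunit of glycoprotein hormones, by 2.29, both from under 0.7 CPM in GFP.

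Of 21 tested epithelial adhesion genes 2 rose and 3 fell, with a median of 0.04, a share near the 25.4% called over all genes. NECTIN4, an adhesion protein of epithelia and carcinomas (chromosome 1, 161070995 to 161089599), was at 9.92, 8.39, 9.22 and 10.1 CPM in GFP and at 2.79, 1.70, 2.69 and 3.03 CPM in G659fs, 3.75-fold lower (-1.91 ± 0.14, adjusted p of 1.1e-07). The epithelial factor GRHL3 fell by 1.18 and keratin KRT8 by 0.44. CDH1, E-cadherin, rose by 0.53, to 5.05 to 5.82 CPM from 3.31 to 4.58 CPM, and CDH2 by 0.22. EPCAM (0.27) and the splicing factors ESRP1 (0.04) and ESRP2 (0.18) were not called.

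Chaperones of the endoplasmic reticulum (ER), where membrane proteins such as RNF43 fold, rose by small amounts. Of 22 tested, 10 rose and none fell, with a median of 0.30. PPIB, a prolyl isomerase, was at 180, 169, 173 and 157 CPM in GFP and at 216, 214, 205 and 221 CPM in G659fs (0.33 ± 0.06, adjusted p of 0.00068). The disulfide isomerases PDIA3 (0.31), PDIA6 (0.32), P4HB (0.32) and PDIA5 (0.35), the lectin CALR (0.28) and the cochaperones SDF2L1 (0.62), MANF (0.44) and DNAJB9 (0.35) rose as well. HSPA5, the master chaperone BiP, was at 652, 649, 620 and 600.0 CPM in GFP and at 833, 790, 773 and 822 CPM in G659fs. Its groups did not overlap, but at 0.35 ± 0.14 (adjusted p of 0.077) it was not called in the fit of all libraries. The number of risen members was 6 without GFP replicate 4 and 18 with the 8 libraries alone, HSPA5 included.

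Genes of ER-associated degradation did not follow. None of 18 tested members was called by edgeR, with a median of 0.02, and DESeq2 likewise called none, while the fit of the 8 libraries called 3 higher and 2 lower. HERPUD1 (0.07), EDEM1 (0.03), SYVN1 (0.04) and SEL1L (-0.31) were among them. Of 15 tested unfolded protein response sensors and factors 2 rose and 2 fell, with a median of -0.04. XBP1 (0.21) and CREB3L2 (0.19) rose and DDIT3 (-0.44) and the sensor ERN1 (-0.28) fell, all 4 with calls that at least 4 alternatives ended. The sensors ATF6 (-0.15) and EIF2AK3 (-0.03) were not called. The ER stress element ERSE (searched as CCAAT and CCACG with 9 bases between) occurred in 0.0806% of all promoters and in 6 of 21 matched ER chaperone promoters. In the fit of all libraries CALR alone of these 6 genes was called, and 8 of the 15 without the element rose. With the 8 libraries alone 18 of the 22 members rose, HSPA5 included, and the split by element was not counted there. The windows of HSPA5 (chr9:125241381-125241419, minus), CALR (chr19:12938374-12938412, plus) and XBP1 (chr22:28800593-28800631, minus) on GRCh38.p14 are printed with the element in capitals, in CALR as its reverse complement.
HSPA5: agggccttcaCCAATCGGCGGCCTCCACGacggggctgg
CALR: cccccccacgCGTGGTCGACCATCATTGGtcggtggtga
XBP1: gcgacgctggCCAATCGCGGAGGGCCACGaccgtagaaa

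Targets of ATF4, the factor of the integrated stress response, rose in 10 of 24 tested members and fell in 1, with a median of 0.22. Against the same GFP libraries 17 rose and none fell in WT, and 5 rose and none fell in R117fs. The direct comparison of G659fs with WT called none higher and 2 lower. The members risen in G659fs were mainly enzymes and transporters of amino acid supply. ASNS, asparagine synthetase, was at 500, 521, 498 and 483 CPM in GFP and at 669, 643, 652 and 650 CPM in G659fs (0.39 ± 0.08). PYCR1 (0.53) and ALDH18A1 (0.23) of proline synthesis, PSAT1 (0.32), PSPH (0.21), SHMT2 (0.26) and MTHFD2 (0.35) of the serine and folate route and SLC7A5 (0.38) also rose. ATF3 rose by 0.41. The stress markers CHAC1 (0.25), DDIT4 (0.06), SESN2 (-0.26) and TRIB3 (0.04) were not called, and GDF15, also a p53 target, fell by 0.91 with overlapping groups. Of 20 tested aminoacyl-tRNA synthetases, which charge tRNAs, YARS (0.18) and LARS (0.29) rose and CARS (-0.38) fell, with 8 rises in the 8 libraries alone.

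Among genes of lipid and sugar metabolism more rose than fell. Of 29 tested sterol and fatty acid synthesis genes 11 rose and 1 fell, with a median of 0.29. INSIG1, the sterol-regulated brake on this pathway, was at 64.6, 96.3, 66.1 and 88.9 CPM in GFP and at 149, 188, 188 and 164 CPM in G659fs (1.12 ± 0.29). DHCR7, an enzyme late in cholesterol synthesis, rose by 0.56 and the desaturase SCD by 0.48. HSD17B7 fell by 0.45. HMGCS1 (0.39) at the entry of the pathway was not called, and 22 members rose in the 8 libraries alone.

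Of 17 tested glycolysis enzymes 11 rose and 2 fell, with a median of 0.27. Against the same GFP libraries 11 rose and 2 fell in WT, and 6 rose and 2 fell in R117fs. TPI1 was at 408, 397, 371 and 373 CPM in GFP and at 506, 512, 495 and 498 CPM in G659fs (0.38 ± 0.07). LDHA (0.39), GAPDH (0.30), PKM (0.31), ENO1 (0.30) and PGAM1 (0.33) rose by similar amounts. PGK1 went against them, at 569, 618, 541 and 618 CPM in GFP and at 320, 333, 331 and 322 CPM in G659fs (-0.84 ± 0.06, adjusted p of 6.0e-08). With effective transcript length in the fit its sign turned, to 1.49. Transcript ENST00000373316 held 96.9% ± 1.68 of the PGK1 counts in GFP and 51.2% ± 0.648 in G659fs (SD, n = 4 each). That transcript held 51.25% ± 1.39 in WT and 51.4% ± 0.362 in R117fs (SD, n = 4 each), near its share in G659fs. The assignment of PGK1 counts to transcripts thus differed between GFP and each RNF43 construct. Between GFP and G659fs their sum differed as well.

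Matrix genes and BMP-responsive genes were among those that rose. Of 28 tested collagens, laminins and matrix glycoproteins 16 rose and 1 fell, with a median of 0.29. TNC, tenascin C, was at 8.02, 5.01, 5.56 and 4.36 CPM in GFP and at 15.01, 14.7, 13.6 and 19.8 CPM in G659fs (1.46 ± 0.16). FN1, fibronectin, was at 61.3, 65.5, 63.5 and 66.1 CPM in GFP and at 90.0, 92.2, 101 and 96.3 CPM in G659fs (0.56 ± 0.08). Both were clear of overlap. SPARC (0.58), THBS1 (0.60), LAMA1 (0.47), COL18A1 (0.46), AGRN (0.41) and the basement membrane collagens COL4A1 (0.30) and COL4A2 (0.36) rose as well, and COL5A2 fell by 0.40.

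Of 19 tested TGF-beta and BMP genes 9 rose and 1 fell. All 4 ID genes, which inhibit basic helix-loop-helix factors and respond to BMP, were among them, with ID1 at 1.03, ID4 at 0.54, ID2 at 0.53 and ID3 at 0.49. ID2 was at 103, 117, 116 and 112 CPM in GFP and at 167, 163, 163 and 156 CPM in G659fs. The BMP inhibitors SMAD6 (0.64) and NOG (0.56) rose, whereas SMAD7 (0.26) and SKIL (-0.42), which respond to TGF-beta, were not called. Of 18 tested YAP/TAZ targets 5 rose, among them ANKRD1 (1.03), CYR61 (0.58) and CTGF (0.51), and AMOTL2 (-0.41) and AJUBA (-0.23) fell.

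Heat shock and interferon genes gave mixed pictures. HSPA6, a strictly stress-induced HSP70, was at 1.71, 1.84, 1.94 and 1.83 CPM in GFP and at 15.5, 19.1, 15.6 and 24.1 CPM in G659fs (3.34 ± 0.62, adjusted p of 0.0019). It and HSPA1A (1.51) have near-identical relatives, so their values are uncertain, and HSPA1A lost its call in 8 of 17 alternatives. The other cytosolic chaperones did not rise with them: of 19 tested, HSPH1 (-0.49) and DNAJB1 (-0.35) fell and 15 were not called, HSP90AA1 (-0.08) and HSPA8 (0.15) included. Of 29 tested interferon-stimulated genes 8 rose, from IFI6 (0.79), OASL (0.75) and IFI44L (0.70) to B2M (0.30), and ISG20 fell by 0.87. The core members ISG15 (-0.20), IFIT1 (-0.03) and MX1 (-0.09) were not called. With effective transcript length 5 rose and none fell. Of 22 tested hypoxia genes NDRG1 (0.55), EGLN3 (0.43), LOX (0.42), PFKFB3 (0.37), BHLHE40 (0.34) and ERO1A (0.34) rose, KDM3A fell by 0.58, and VEGFA (0.01) and SLC2A1 (-0.02) were not called.

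Proliferation genes were read against the 25.4% of all genes that were called. Of 29 tested DNA replication genes RRM2, a ribonucleotide reductase subunit, rose from 135 to 141 CPM to 205 to 216 CPM (0.60 ± 0.10), and MCM5 (-0.41), CDC6 (-0.22) and MCM6 (-0.16) fell. MCM6 lost its call in 8 of 17 alternatives. Of 22 mitosis genes PRC1 alone was called (-0.16, lost in 7 alternatives), and MKI67 was at 0.27 with an adjusted p of 0.050. Of 31 proteasome subunits PSMB5 (0.21) rose and PSMD6 (-0.26) and PSMC2 (-0.20) fell. The calls of PSMB5 and PSMC2 were lost in 7 and 9 of 17 alternatives. Of the 11 tested TCEAL and BEX genes, BEX5 rose and TCEAL7 fell, with calls that 6 and 10 alternatives ended.

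Genes that mark RNA quality or other cells were likewise read against the 25.4% of all genes that were called. Of the other-cell markers, 8 of 10 haematopoietic, 4 of 5 gut and 6 of 9 fibroblast genes were not called. Of the 13 protein genes encoded by mitochondrial DNA 7 rose and none fell, with a median of 0.21, and their summed level was 12540 to 15440 CPM in GFP and 14940 to 16500 CPM in G659fs. The count of 7 was 4 without GFP replicate 2 or 3 or without G659fs replicate 2 or 3. Their part in the other results was not tested. Among 10 tested haematopoietic markers CD68 (-0.91) and LCP1 (-0.52) fell, LCP1 not without GFP replicate 4 or G659fs replicate 2. Of 5 tested gut markers CDX2 rose (0.34), a call lost without GFP replicate 3 or 4 and with effective transcript length. Of 9 tested fibroblast markers COL3A1 (1.09) and LUM (0.98) rose and ACTA2 fell by 1.14, while PDGFRA, PDGFRB, DCN and VIM were not called. Among genes high in HEK293 the neurofilaments NEFM (1.02) and NEFL (0.50) and SALL1 (0.35) rose and HOXC10 (-0.34) fell.

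**Figure D4:**
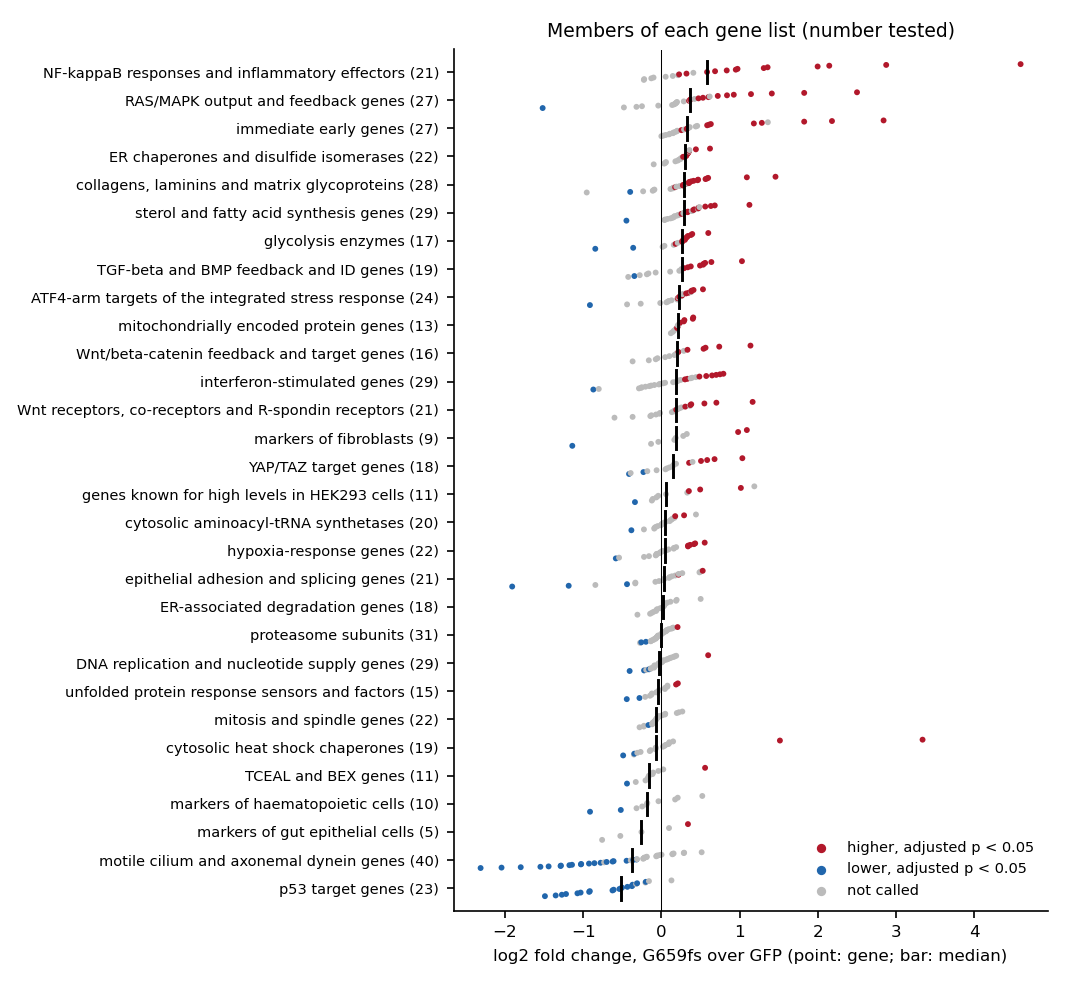
Each point is a tested gene of the list named at the left, placed by its log2 fold change of G659fs over GFP, and black bars are list medians. NF-kappaB responses have the highest median (0.58), and the motile cilium (-0.38) and p53 (-0.52) lists have the lowest, with no called member on the higher side.

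Direct tests between constructs showed where G659fs differed from wild-type RNF43. Of 16787 genes 953 (5.68%) were called, 390 higher in G659fs (2.32%) and 563 lower (3.35%). The number depended on single libraries: it was 100 without G659fs replicate 2, 116 without replicate 3 and 371 without replicate 4. The genes named next kept their calls in all 8 analyses that left out a GFP or G659fs library, and no WT library was left out. NECTIN4, at 7.53 ± 0.678 CPM in WT, was lower in G659fs by 1.58 ± 0.14 on the log2 scale. DHRS2, at 18.9 ± 6.79 CPM in WT, was at 6.34 ± 1.76 CPM in G659fs (adjusted p of 0.0085). KCNN4 was lower in G659fs by 1.94, EDA2R by 0.83 and LIF by 1.03. ESRP1, an epithelial splicing factor, was at 4.33 ± 0.714 CPM in WT and 1.31 ± 0.249 CPM in G659fs (SD, n = 4 each), close to the 0.782 to 1.62 CPM of GFP, and was lower in G659fs by 1.74. TCEAL7 (-1.17), ISG20 (-1.03), the cilium gene CFAP61 (-1.51) and XBP1 (-0.35) were lower as well. NFKBIA was higher in G659fs than in WT by 0.44 ± 0.08, the BMP inhibitor SMAD6 by 0.57 and FN1 by 0.48.

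For other genes the difference from WT was not called or was lost without some of these libraries. EGR1 differed by 0.40 ± 0.18 (adjusted p of 0.19), FOS by 0.70 (adjusted p of 0.19) and SPRY4 by 0.67 (adjusted p of 0.054). CXCL8 (0.74), ETV5 (0.72), ETV4 (1.12), PHLDA3 (-0.59) and CFAP43 (-0.69) were called but lost their calls in 2 to 4 of the 8 analyses that left out a library. By list, G659fs was higher than WT in 3 of 21 NF-kappaB genes and in 8 of 28 matrix genes. It was lower in 4 of 23 p53 targets, 4 of 40 cilium genes and 5 of 11 TCEAL and BEX genes (median of -0.38 for these 11).

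Against the truncated R117fs, 2412 genes (14.4%) were called, 1066 higher in G659fs (6.35%) and 1346 lower (8.02%), and 1320 without G659fs replicate 3. G659fs was higher in 12 of 27 immediate early genes and lower in none, with a median log2 difference of 0.45. It was higher in 11 of 27 RAS/MAPK genes and lower in LIF, with a median of 0.36. EGR1 was higher by 3.04 ± 0.21 on the log2 scale (adjusted p of 1.8e-07), SPRY4 by 3.63, ETV5 by 3.66 and ETV4 by 2.84. ETV5 was at 0.533 to 1.09 CPM in R117fs, below every GFP library. NF-kappaB genes were higher in 13 of 21 members, CXCL8 by 4.27 ± 0.32, and lower in TNFAIP2 and BIRC3. ER chaperones showed the reverse order, with 16 of 22 lower in G659fs and 2 higher. HSPA5 was at 2119 ± 612 CPM in R117fs and 804 ± 27.8 CPM in G659fs (SD, n = 4 each), lower with an adjusted p of 1.3e-05, and PDIA4 was lower by 1.58. G659fs was also lower in 6 of 23 p53 targets, DDB2 (-0.57) and PHLDA3 (-0.92) among them, and in 13 of 40 cilium genes. All of the genes named here for R117fs except BIRC3 kept their calls whichever of the 8 GFP and G659fs libraries was left out.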

How the data were processed

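RNA-seq of total RNA was done on 16 HEK293 libraries, 4 per group, with groups and replicate numbers taken from the labels. Per the submitters' processing notes, kallisto 0.45.1 and GRCh38 were used for quantification. Not given in the sources used here are annotation release, read length and strand setting. The authors deposited estimated counts per transcript, which need not be whole numbers and which set the depth. The deposited TPM values were not used.

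Transcripts were matched without version to GENCODE 29 (162453 of 178136, 91.2%). Unmatched transcripts held 1.90% to 2.22% of a library's counts and were left out. Sums of estimated counts for 35075 genes were rounded. For the 16787 genes that passed filterByExpr, groups were compared by edgeR 4.0.16 under R 4.3.3 (TMM, robust dispersions, glmQLFit, glmQLFTest) in 1 fit of all 16 libraries, and p-values were adjusted by Benjamini-Hochberg over all genes of a comparison. SE is the log2 fold change divided by the square root of F. Levels are CPM on TMM-scaled library sizes. Reads shared by near-identical or overlapping genes are divided by estimation, so such genes are uncertain. The scripts were tested on simulated counts.

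Named genes were RNF43, the 12 protein-coding genes with the largest change each way (adjusted p under 0.05, at least 2 CPM in the higher group, no overlap), and in each of 30 gene lists the key members by role and the 3 with the smallest p. Other list members are named, after their values were seen, to account for the list. The genes and lists were chosen with earlier results of these data known. Lists are described by counts and medians without a test. Motifs were searched on both strands of RefSeq promoters (GRCh38.p14, 250 bases before to 50 after the start). Searches for NF-kappaB, X-box, p53 and TCF/LEF sites were added after the calls were seen. A match describes letters, not binding. The p53 half-site lay in 6.54% of all promoters and in 2 of 20 p53 target promoters, FDXR and AEN. The ATF4 core site TTGCATCA lay in 0.923% of all and in 1 of 19 stress response promoters, CHAC1.

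Alternatives were DESeq2 1.42.0, RLE size factors, no or a stricter count filter, the 8 libraries alone, all but R117fs replicate 4, a replicate block, an offset for effective transcript length, removal of a GC trend, and leaving out each of the 8 libraries in turn. Within GFP and within G659fs no 2 libraries were near-identical, and other pairs were not compared. Some genes of the lists are not reported here.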

Additional observations from a re-analysis of the deposited data

Results flagged for a closer look

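In 10 of 282 sets of 4 libraries tested (3.55%), 1 library of a named gene lay far from the other 3 by Dixon's criterion, which chance does in about 1 set of 20. In GFP replicate 1 LRP6 was at 37.89 CPM against 42.77 to 43.54 CPM in the other GFP libraries. GFP replicate 4 was low in LARS (344.9 against 366.2 to 370.1 CPM) and high in FOXJ1 (1.117 against 0.9202 to 0.9526 CPM) and SALL1 (52.85 against 44.89 to 46.19 CPM). G659fs replicate 1 was low in PYCR1 (285.4 against 307.4 to 311.9 CPM) and MKI67 (396.0 against 468.7 to 482.8 CPM) and high in BEX2 (68.0 against 51.83 to 53.98 CPM). G659fs replicate 2 was high in PGAM1 (400.3 against 388.1 to 388.3 CPM), replicate 3 in GRHL3 (1.136 against 0.8012 to 0.8494 CPM) and replicate 4 in CDKN1A (83.12 against 74.63 to 75.77 CPM). Of these genes PYCR1, CDKN1A, FOXJ1, GRHL3 and PGAM1 kept their calls in all 17 alternatives.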

How the results depend on the processing

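The number of genes changed between G659fs and GFP was 4258. It was 6993 with the 8 libraries alone, 6778 after removal of a GC trend and 6723 when R117fs replicate 4 was dropped, and 3067 to 3716 when 1 of the 8 libraries was left out. Genes higher in G659fs numbered 1946 and became 3558, 3430 and 3354 in the same 3 settings. The number changed at least 2-fold, 422, was 230 with the stricter filter. G659fs against WT, 953 genes, gave 601 without a filter, 3530 when R117fs replicate 4 was dropped, 439 with the length offset, 3372 after GC removal, 1663 with DESeq2, and 100 to 842 when a library was left out. G659fs against R117fs, 2412 genes, gave 4012 when R117fs replicate 4 was dropped, 4892 after GC removal, and 1320 to 2245 when a library was left out. PGK1 turned from -0.84 to 1.49 with the length offset. With replicate number as a block 4564 genes differed from GFP. The labels give no shared culture or day, and deviations of same-numbered GFP and G659fs libraries correlated at 0.052, 0.039, -0.039 and 0.026, so the numbers were not taken as pairs. Of 141 named genes 114 were called, 86 of them under all 17 alternatives. NKD1, CDH1, ISG20, OAS3, SALL1 and COL3A1 lost their calls with the length offset only. Precision at low counts limits the values under about 1 CPM, and 40 of 60 list counts moved by over 1.5 times in some setting. The causes were not tested.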
